A study of Sus scrofa domesticus with 4 samples.

Results

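The transcripts with the brightest signal in the anterior pituitary of the pig were described on 4 two-colour Agilent arrays, each of which measured the RNA of 1 pregnant and 1 cyclic gilt (a young female pig). For every array probe that was no control, the log2 processed signal was averaged over the 8 channels, that is, both dyes of the 4 arrays, and the brightest probe stood for its sequence accession. Of 36389 accessions the 200 brightest were taken. From these, 24 genes of cytosolic ribosomal proteins and 7 genes of hormones and granins (PRL, POMC, CHGB, GH1, CGA, SCG2 and LHB) were left out, which left 169 members. A symbol in the NCBI table of pig genes was found for 30 of them, and the other 139, among them 37 Ensembl transcripts and 30 sequence clusters, had none. Some of the 139 may come from genes that were left out by name, which was not tested.

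The 4 pregnant gilts were mated naturally and carried conceptuses on days 12 to 13, around the maternal recognition of pregnancy, when signals of the conceptuses keep the corpora lutea alive. The 4 cyclic gilts were taken on days 12 to 13 of the estrous cycle, as judged from their ovaries. Both groups were untreated mature gilts of a Large White x Polish Landrace cross weighing about 110 kg, and the labels give no age. The labels name 8 individuals, so every channel was a separate animal. By the label of each sample, the pregnant gilt was in the Cy3 channel of arrays 1 and 3 and in the Cy5 channel of the other two. The RNA was that of a whole gland, in which fewer cells of a type and less RNA per cell cannot be told apart.

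The anterior pituitary is a gland of secretory cells that make peptide hormones, process their precursors and store them in dense granules until a signal from the hypothalamus releases them. Cells of this kind need much translation, protein folding, calcium and G protein signalling and mitochondrial energy, and genes of these functions are active in most cell types. A signal near the top of an array therefore often comes from genes of general upkeep. How bright a probe is depends on the probe as well as on the amount of its transcript, so the members were the transcripts with the brightest probes, and their order was not read as an order of abundance. The members were chosen by their levels, which are given here as a description, while the spread over animals and the ratio of pregnant to cyclic gilts were not used in the choice.

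Depth in an array is set by signal over background. All 169 members were well above background in all 8 channels, against 47.5% to 71.8% of all spots, and no spot was saturated. The brightest member reached 91.2% of the saturation value that the files state for Cy5 and 26.7% of that for Cy3. On array 4, 11.3% of the spots lay in an area in which signal had been lost. Over the whole of array 4, 8.52% of the spots that were bright on all other arrays were lost. The same share was at most 0.00974% on any other array. Of the members 5 had their spot in that area, ITGB3 among those with a symbol. Arrays 1 and 3 also stood apart in their ratios, as described below, and some of the results that rest on them are also given without them.

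Several markers of hormone cells were bright in this tissue, as its label has it. PRL, POMC, GH1, CGA and LHB ranked 2, 4, 12, 16 and 99 by brightness. FSHB ranked 362, GNRHR 1884, POU1F1 2141 and TSHB 2348, the last 3 below OXT and DCN, which mark other cells. TSHB ran from 9.52 to 17.45 in scaled log2 signal over the channels, so its rank by the mean hides a wide spread. No marker of another cell type was among the 30 members with a symbol, and markers that had no symbol on the array, such as COL1A1, GFAP, S100B and VWF, could not be checked. OXT, the oxytocin precursor of the neural lobe, ranked 1013 with a log2 signal of 13.6, and AVP, the vasopressin precursor, ranked 21450 and was well above background in 5 of 8 channels. The brightest markers of stroma, endothelium and myeloid cells (DCN, PECAM1 and CD163) ranked 1642, 3852 and 4456. No erythrocyte gene of the list was measured.

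In what follows a level is a log2 processed signal with each channel scaled to a common median, so that 1 unit is a doubling, and its spread is the SD over the 8 gilts. A ratio is the log2 ratio of pregnant over cyclic after loess normalisation, fitted by limma with a term for the dye, and a value after a plus-minus sign is the SD of the ratio over arrays. Values of different probes were not set against each other as amounts.

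Signals at the edge of the choice were close together. The member with a symbol nearest the edge was PPIA with 16.461, and the last member, at rank 200, had 16.42. Just outside, the next 3 accessions had 16.407, 16.363 and 16.358, and NME2, a nucleoside diphosphate kinase, had 16.354 at rank 204.

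**Figure D1:**
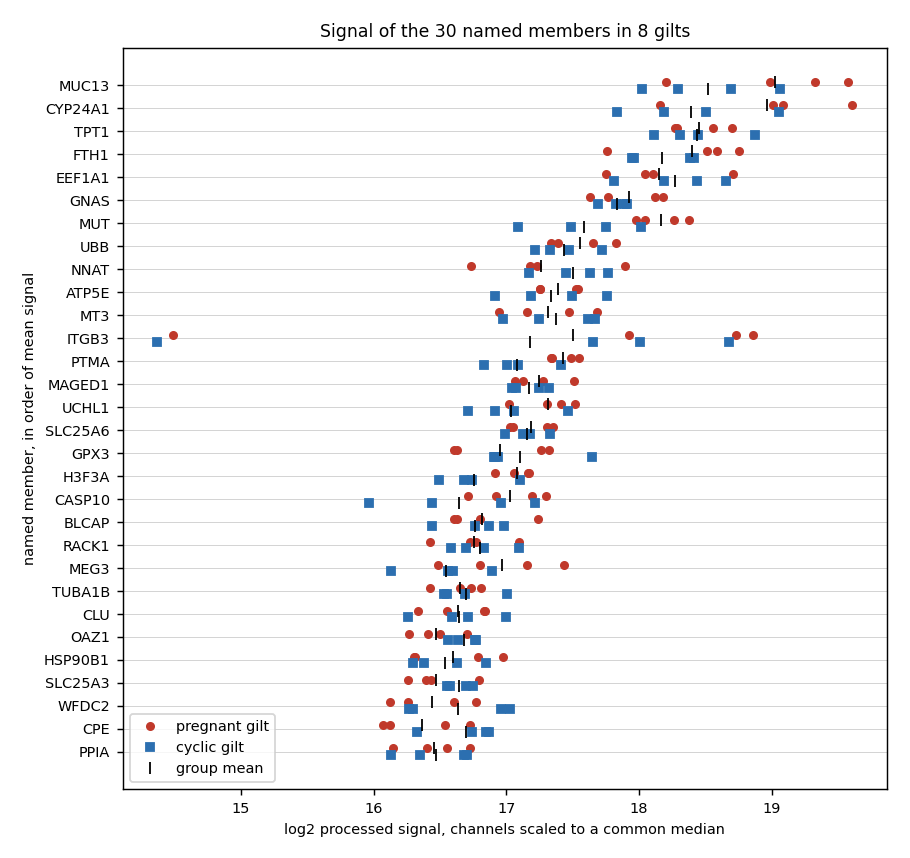
Levels of the 30 members with a gene symbol, in order of mean signal, as log2 processed signal scaled to a common channel median (horizontal axis). Each circle is a pregnant gilt, each square a cyclic gilt and each short line a group mean (n = 4). Symbols of the groups are interleaved for most genes, and ITGB3 shows 2 gilts near 14.4, both from array 4.

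The members with a role in translation were TPT1, EEF1A1 and RACK1. TPT1 encodes a small, very abundant protein linked to growth and translation, EEF1A1 the elongation factor that brings transfer RNA to the ribosome, and RACK1 a scaffold protein of the small ribosomal subunit. TPT1 had levels of 18.27, 18.29, 18.56 and 18.70 in the pregnant gilts of arrays 1 to 4 and of 18.45, 18.11, 18.88 and 18.31 in the cyclic gilts. The groups overlapped over their whole range, and the spread was 0.254. Its ratio was 0.01 ± 0.57. All 17 probes of TPT1 were well above background, and 16 of them had a negative ratio, the lowest at -0.25. EEF1A1 had levels from 17.75 to 18.71 in pregnant and from 17.81 to 18.66 in cyclic gilts, with a spread of 0.361 and a ratio of -0.12 ± 0.57. Of its 17 tested probes 15 had a negative ratio. RACK1 differed from animal to animal by array: its levels in pregnant gilts were 16.73, 16.43, 16.77 and 17.09, and in cyclic gilts 16.69, 16.58, 16.83 and 17.09. The 2 gilts of each array were thus closely alike, and the array accounted for 96.2% of the sum of squares. Of the 23 genes of the translation list 8 were on the array with a symbol, 7 were tested, and none was called.

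Members of iron, metal and redox biology were FTH1, the heavy chain of the iron store ferritin, MT3, a metal-binding metallothionein, and GPX3, a secreted glutathione peroxidase. FTH1 had levels of 18.59, 18.51, 17.76 and 18.75 in pregnant and of 18.38, 17.95, 18.41 and 17.97 in cyclic gilts. The lowest value of all was that of the pregnant gilt of array 3, and the groups overlapped. Its ratios on arrays 1 to 4 were -0.20, 0.88, -0.95 and 0.99, so they split by dye orientation, and the fitted ratio was 0.18 ± 0.92. MT3 had a ratio of -0.07 ± 0.34 and a spread of 0.305. GPX3 had levels of 16.61, 16.63, 17.32 and 17.26 in pregnant and of 16.94, 16.91, 17.64 and 16.91 in cyclic gilts. The cyclic gilt of array 3 was above all 7 others. Its ratio was -0.20 ± 0.53, and all 4 probes of GPX3 had a negative ratio, from -0.41 to -0.20. Of 13 genes of this list on the array 11 were tested, 4 with a positive and 7 with a negative ratio, and none was called.

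GNAS, which encodes the G protein alpha subunit that activates adenylyl cyclase downstream of the releasing hormone receptor of growth hormone cells, was one of the steadier members. Pregnant gilts had levels of 17.76, 17.63, 18.12 and 18.18, and cyclic gilts of 17.83, 17.69, 17.91 and 17.90. The spread was 0.193 and the ratio 0.08 ± 0.28. Most other probes of GNAS did not share its sign: 12 of 16 had a negative ratio, down to -0.46. It was the only member among 10 measured genes of calcium and G protein signalling.

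NNAT and CPE were the members that serve prohormone handling. Neuronatin (NNAT) is an imprinted protein of the endoplasmic reticulum, and carboxypeptidase E (CPE) trims basic residues from cut prohormones in the granule. NNAT had levels of 16.74, 17.23, 17.18 and 17.89 in pregnant and of 17.63, 17.17, 17.77 and 17.45 in cyclic gilts. The groups overlapped, the highest and the lowest gilt both being pregnant. Its ratios were -1.28 and -0.82 on arrays 1 and 3, where pregnant RNA carried Cy3, and 0.30 and 0.60 on arrays 2 and 4. The fitted ratio was -0.30 ± 0.89, with an adjusted p of 0.280 in limma. CPE had levels of 16.12, 16.54, 16.07 and 16.73 in pregnant and of 16.32, 16.87, 16.74 and 16.84 in cyclic gilts. In each of the 4 pairs the pregnant gilt had the lower value, although the groups overlapped. The ratio of CPE was -0.16, -0.28 and -0.59 on the 3 arrays with an unflagged spot, and the fit gave -0.33 ± 0.23 with an adjusted p of 0.324 in limma. The 5 tested probes of CPE all had a negative ratio, from -0.38 to -0.29. Of 10 genes of granule and prohormone processing on the array 8 were tested, of which 1 had a positive and 7 a negative ratio and none was called. Granins were part of that list and were left out of the members by name.

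MEG3, a long RNA transcribed from the maternal copy of an imprinted region and known as silenced in some human pituitary tumours, was a member with a wide spread of 0.407. Pregnant gilts had levels of 16.80, 16.48, 17.43 and 17.15, and cyclic gilts of 16.60, 16.56, 16.13 and 16.89. Its widest gap was on array 3, with a ratio of 1.29. The spots of the other 3 arrays carried an outlier flag, so MEG3 was not tested.

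Ubiquitin and protein turnover were represented by UBB, a polyubiquitin gene, and UCHL1, a ubiquitin hydrolase of neurons and endocrine cells. UBB had levels from 17.34 to 17.83 in pregnant and from 17.22 to 17.72 in cyclic gilts, with a spread of 0.217 and a ratio of 0.09 ± 0.17. UCHL1 had levels of 17.02, 17.31, 17.41 and 17.52 in pregnant and of 16.71, 17.06, 16.91 and 17.46 in cyclic gilts. The pregnant gilt was the higher of the pair on every array, while the groups overlapped. Its ratio was 0.22 ± 0.17, with an adjusted p of 0.306 in limma, while its other probe had a ratio of -0.09. Of 15 tested genes of this list 8 had a positive and 7 a negative ratio, and none was called.

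Members with a role in mitochondrial ATP supply were SLC25A6, an exchanger of ADP and ATP, SLC25A3, the phosphate carrier, and ATP5E, a small subunit of ATP synthase. SLC25A6 had the smallest spread of all members with a symbol, 0.144. Its levels were 17.05, 17.02, 17.31 and 17.35 in pregnant and 17.12, 17.33, 16.99 and 17.18 in cyclic gilts. The groups overlapped, and the ratio was 0.00 ± 0.29. SLC25A3 had levels of 16.26, 16.40, 16.43 and 16.80 in pregnant and of 16.55, 16.70, 16.57 and 16.75 in cyclic gilts. Pregnant gilts were the lower of the pair on arrays 1 to 3 and the higher on array 4. Its ratio was -0.19 ± 0.23 (adjusted p = 0.331 in limma), and all 6 tested probes had a negative ratio, from -0.62 to -0.11. ATP5E had a ratio of 0.18 ± 0.37 over 3 arrays, and its other probe was 7.04 log2 units dimmer. Of the oxidative phosphorylation list, which held SLC25A6 and SLC25A3 but not ATP5E, 12 genes were tested. Of these 7 had a positive and 5 a negative ratio, and none was called.

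Nuclear proteins were represented by H3F3A, which encodes the replication-independent histone H3.3, and PTMA, which encodes prothymosin alpha, a small acidic protein that binds histones. H3F3A had levels of 17.06, 16.92, 17.16 and 17.17 in pregnant and of 16.50, 16.68, 16.74 and 17.10 in cyclic gilts. The pregnant gilt was the higher on every array, and the groups overlapped only through the cyclic gilt of array 4. The ratios were 0.28, 0.45, 0.26 and 0.22, the fit gave 0.30 ± 0.10 (1.23-fold), and the adjusted p was 0.236 in limma. Both probes of H3F3A had a positive ratio. PTMA had levels of 17.34, 17.49, 17.34 and 17.55 in pregnant and of 17.00, 17.09, 16.83 and 17.41 in cyclic gilts. Here too the pregnant gilt was the higher in level on every array, although after loess the ratio of array 1 was -0.09. Its ratio was 0.31 ± 0.33, with an adjusted p of 0.276 in limma. These 2 were the only members with a symbol at an unadjusted p under 0.05. Over the whole chromatin and RNA-binding list, these members included, 4 of 11 tested genes had a positive and 7 a negative ratio, 2 in each direction at an unadjusted p under 0.05, and none was called.

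Other named members were a tubulin, chaperones and proteins of various roles. TUBA1B (an alpha-tubulin), OAZ1 (an inhibitor of polyamine synthesis) and MAGED1 (a MAGE family adaptor protein) had spreads of 0.180, 0.179 and 0.162 and were, with SLC25A6 and SLC25A3, the 5 steadiest of the 30. The ratio of OAZ1 was -0.15 ± 0.25, and all 3 of its probes were negative. TUBA1B had a ratio of -0.05 ± 0.32 and MAGED1 of 0.08 ± 0.22. CLU, the secreted chaperone clusterin, had a ratio of 0.00 ± 0.18 over 3 arrays. Spots of BLCAP (a small membrane protein), HSP90B1 (the HSP90 chaperone of the endoplasmic reticulum), PPIA (the peptidyl-prolyl isomerase cyclophilin A) and WFDC2 (a secreted protein of the whey acidic protein family) were flagged on at least 2 arrays, so these were not tested. The levels of WFDC2 were 16.61, 16.12, 16.77 and 16.26 in pregnant and 16.29, 16.27, 16.96 and 17.03 in cyclic gilts. HSP90B1 and PPIA differed mainly by array, which accounted for 95.5% and 97.6% of their sums of squares. In levels the groups of all of these genes overlapped.

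Several of the brightest probes did not share their signal with other probes of the same gene. MUC13, a membrane mucin of epithelia, ranked 1 with a mean of 18.77, while its other 3 probes had at most 3.24 and were well above background in no channel. CYP24A1, the enzyme that inactivates vitamin D hormone, ranked 3 with 18.68, and its other probe had 9.37. ITGB3 (integrin beta 3) and MUT (methylmalonyl-CoA mutase) had a next probe 8.93 and 7.35 log2 units dimmer. For CASP10, a caspase, the next probe had 16.76 but 3 of the other 5 were below 10, the dimmest at 4.34. The high rank of these genes therefore rests on part of their probes, and whether their brightest probe reads the named transcript was not tested. Of the 59 members with several probes of their accession, 37 had a next probe within 1 log2 unit and 7 had one at least 5 units dimmer.

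**Figure D2:**
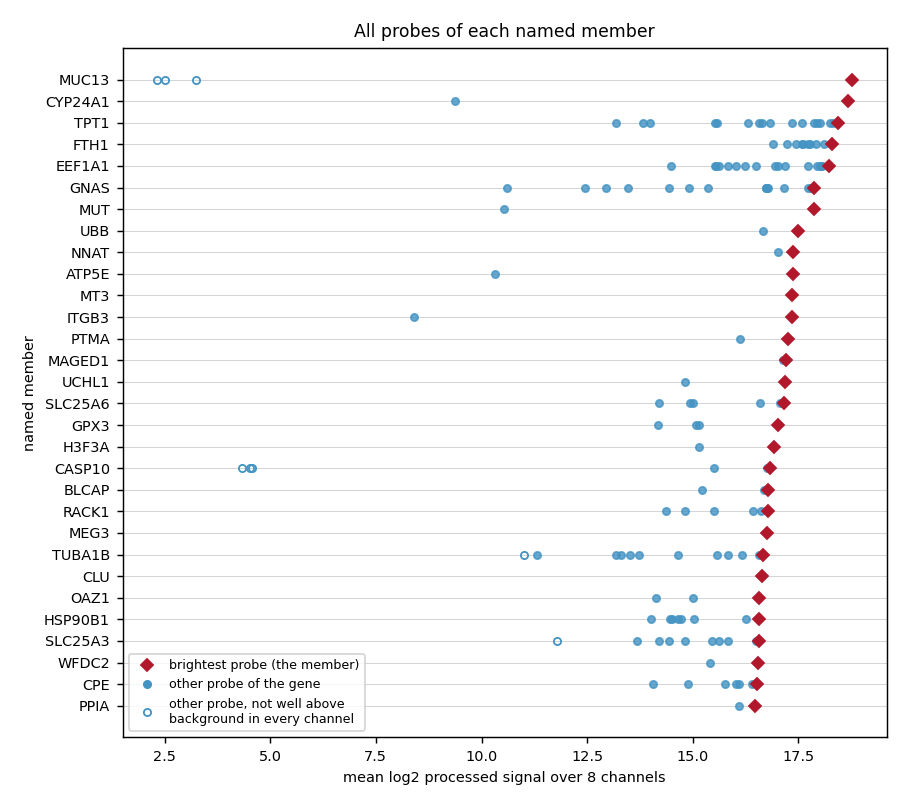
Mean log2 processed signal over the 8 channels (horizontal axis) of every probe of the 30 members with a symbol. Diamonds are the probes that made the gene a member, circles are other probes, and open circles are those not well above background in every channel. MUC13 has 3 open circles at or below 3.24, whereas the 10 probes of FTH1 all lie above 16.8.

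The same 5 genes were the least steady of the named members. ATP5E, whose other probe was 7.04 log2 units dimmer, was not among them and had a spread of 0.264. ITGB3 had levels of 17.93, 18.86, 18.73 and 14.49 in pregnant and of 18.68, 17.65, 18.01 and 14.37 in cyclic gilts. Both low values came from array 4, where its spot lay in the area of lost signal, and without that array its spread was 0.506 in place of 1.85. CYP24A1 had levels of 18.16, 19.08, 19.01 and 19.61 in pregnant and of 19.05, 17.83, 18.19 and 18.51 in cyclic gilts. MUC13 had levels of 18.20, 18.99, 19.33 and 19.58 in pregnant and of 19.06, 18.02, 18.29 and 18.69 in cyclic gilts. In both genes the pregnant gilt was the lower on array 1 and the higher on arrays 2 to 4. Their spreads were 0.602 and 0.561, and their ratios were 0.57 ± 1.24 and 0.45 ± 1.18. MUT had levels of 17.97, 18.05, 18.27 and 18.38 in pregnant and of 18.02, 17.49, 17.09 and 17.75 in cyclic gilts. Only the cyclic gilt of array 1 reached the range of the pregnant gilts. Its ratio was 0.56 ± 0.65 with an adjusted p of 0.293 in limma, and its second probe had a ratio of -0.27. CASP10 had its lowest level, 15.96, in the cyclic gilt of array 3, against 16.44 to 17.22 in the other cyclic and 16.71 to 17.30 in the pregnant gilts. Its ratio was 0.41 ± 0.56, and all 4 tested probes had a positive ratio.

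Over all 169 members the median spread was 0.396, with quartiles of 0.258 and 0.461. The range ran from 0.0784 to 1.91. A spread under 0.5 was found for 145 members (85.8%), against 81.5% of the 200 accessions next in brightness and 67.1% of the 21627 tested probes. Outside the lost area of array 4 the share was 87.2% both for members and for those next in brightness. A spread over 1 was found for 5 members (2.96%), against 6.5% of the 200 accessions next in brightness and 6.24% of all tested probes. Of these 5 members, ITGB3 and 2 without a symbol lay in the lost area of array 4. Outside that area the shares were 1.22%, 1.07% and 2.99%. The median over all tested probes was 0.404, and which of the medians was lower depended on the processing. With no scaling the members had 0.394 and all probes 0.421. With spots of the lost area left out they had 0.396 and 0.389. After normexp background correction, loess and quantile normalisation of the channels' mean signal they had 0.389 and 0.284. The 30 members with a symbol had a median of 0.271 and the 139 others 0.418. For comparison, the 24 ribosomal protein genes that were left out had a median of 0.228 and at most 0.378, and the 7 hormone and granin genes a median of 0.440. The 200 accessions next in brightness had 0.319. Without array 3 the members' median was 0.301, and without array 1 it was 0.434.

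**Figure D3:**
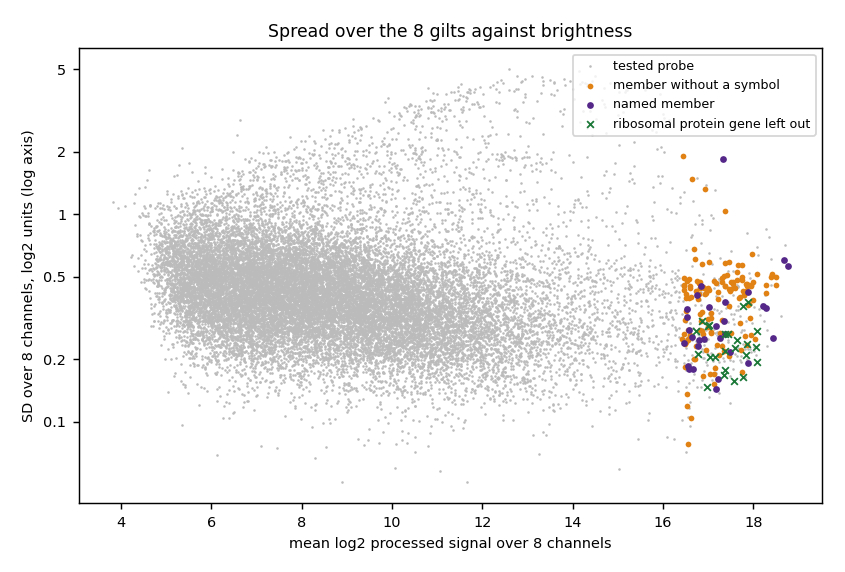
Spread of each probe over the 8 gilts (vertical axis, SD in log2 units, log scale) against its mean log2 processed signal (horizontal axis). Grey points are all tested probes, orange and purple points are members without and with a symbol, and crosses are the 24 ribosomal protein genes left out. Most members lie below 0.5, the named ones around 0.271 and the unnamed ones around 0.418.

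The sum of squares over the 8 channels was split into parts for array, dye, group and rest. The array part has more degrees of freedom than each of the others, which favours it as the largest part. In the median member 49.3% lay between arrays, 4.41% between dyes, 18.6% between groups and 16.2% in the rest. Over all tested probes the medians were 58.6%, 6.10%, 10.72% and 9.88%. The array was the largest part for 109 of 169 members, the group for 36, the rest for 15 and the dye for 9. Over the 21627 tested probes the array was so for 15139, the group for 3628, the rest for 1720 and the dye for 1140. Among members with a symbol the array had 62.2% and the group 7.47%. The group took 53.9% in MUT, 53.4% in PTMA and 46.7% in H3F3A.

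The rank in single channels is a further description, since the mean over these same channels chose the members. The 200 brightest accessions of the pregnant channels alone and of the cyclic channels alone shared 185. Within single channels 137 to 157 of the 169 members were among the 200 brightest, and 98 were so in all 8 channels, 18 of them with a symbol. Within the 400 brightest, 165 stayed in all 8 channels. The members with a symbol that left the 200 brightest most often were PPIA, which was there in 3 channels, and WFDC2 and HSP90B1, each there in 4.

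No member was called between pregnant and cyclic gilts. Of 160 tested members, 143 of them on all 4 arrays, 0 had an adjusted p under 0.05 in limma with Benjamini-Hochberg adjustment over 21627 probes. The background was the same, with 0% of all probes called, and the smallest adjusted p was 0.235 among members and 0.0761 over all probes. At an unadjusted p under 0.05 there were 20 members (12.5%), 15 higher and 5 lower in pregnant gilts. The background was 18.1% of all probes, with 10.4% higher and 7.62% lower, so the members' share was below it. A fit of the separate channels called 8 of 143 members, 4 in each direction, and 5.26% of all probes. With 4 pairs an exact test by sign changes cannot give a two-sided p below 0.125, so none was used for a single member.

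Although the members were called no more often, their ratios over the 4 arrays were larger and more often positive than those of all tested probes, the size resting largely on array 3. The fitted ratio was positive for 123 members and negative for 37, with a median of 0.22 against 0.01 for all tested probes. Its median size was 0.298 against 0.130, and without array 3 it was 0.137 against 0.114. With processed signals in place of normexp and loess it was 0.297 against 0.229, so the difference in size also depended on the processing. The shares beyond 0.5 and the SDs that follow are given only for the fit after loess. Beyond 0.5 either way were 30 members (18.8%), against a background of 6.4%. The spread between arrays was larger as well, with a median SD of the ratio of 0.535 against 0.223. The 200 accessions next in brightness shared much of this. Of 132 tested there, 96 had a positive and 36 a negative ratio. Their median size was 0.232, 15.9% lay beyond 0.5, and the median SD was 0.395. A ratio of the same sign on every array was found for 25 members upward and 6 downward, beside backgrounds of 15% and 11.9%. Groups that did not overlap in level were found for 4 members, 3 with pregnant gilts above and 1 with cyclic gilts above, which is 2.5% of those tested. The background was 6.24%, of which 3.66% had pregnant and 2.58% cyclic gilts above.

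**Figure D4:**
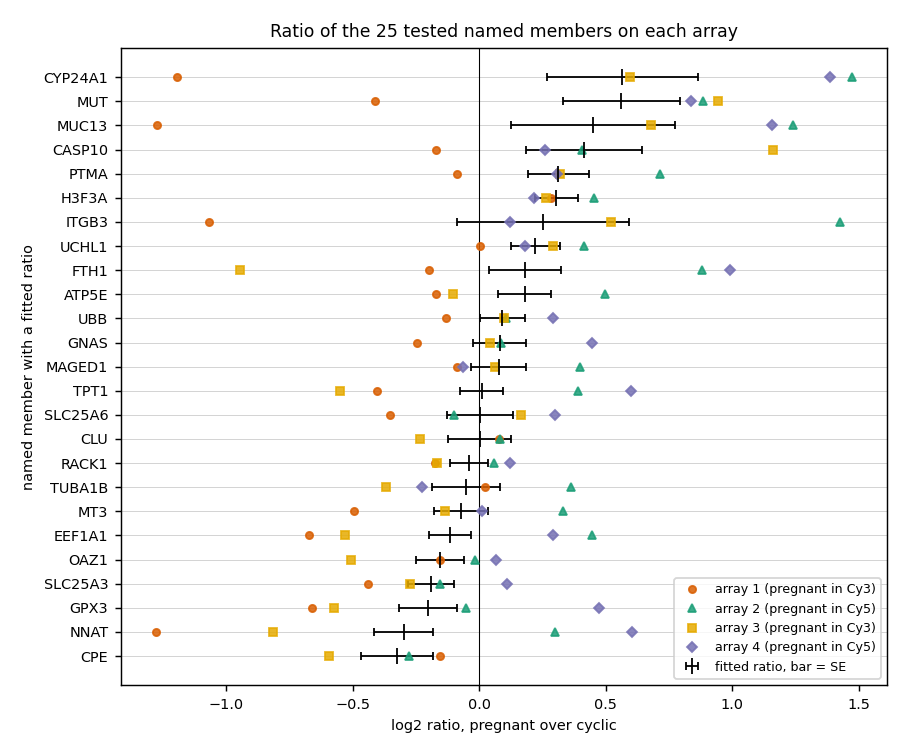
Log2 ratio of pregnant over cyclic (horizontal axis) of the 25 tested members with a symbol. Coloured symbols are the 4 arrays, named with the dye of the pregnant RNA, and the black bar is the fitted ratio ± SE. Circles of array 1 lie left of 0 for most genes, and H3F3A is the gene whose 4 ratios lie closest together.

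The ratio that members shared was not one that the arrays shared. On array 1 the members' median ratio was -0.18 and 25.9% were positive. On arrays 2, 3 and 4 the medians were 0.36, 0.31 and 0.30, and 84.5%, 69.6% and 84.6% were positive. Signs that were negative on array 1 and positive on arrays 2 to 4 were found for 62 of 143 members (43.4%), against 6.36% of 19880 probes. A split by dye orientation, negative on arrays 1 and 3 and positive on arrays 2 and 4, was found for 25 members (17.5%), against 8.40%. TPT1, FTH1, EEF1A1 and NNAT were among the latter. The dye coefficient was positive for 108 of 160 members and for 24 of the 25 with a symbol, so the members' Cy5 signal was mostly the higher after loess. It was positive for 10633 of all 21627 tested probes and for 40 of 132 tested accessions next in brightness. Among the ribosomal protein genes left out it was positive for 22 of 23 tested. Whether the dye has a part in the ratios beyond its term in the fit was not tested.

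On array 3 the members' ratios had a second peak. Of 158 members with a ratio there 66 lay above 0.8, a limit set after these values were seen, from 0.897 to 1.64 with a median of 1.16. The other 92 had a median of -0.03 and reached up to 0.796, so the values run on below the limit. A ratio over 0.8 on array 3 was found for 41.8% of members, 32.7% of the 200 accessions next in brightness and 10.6% of all tested probes. Only 3 of the 66 had a symbol, MUT, CASP10 and MEG3. On arrays 1, 2 and 4 the 66 had medians of -0.20, 0.56 and 0.34, and the other members -0.17, 0.18 and 0.28. Most of the 66 had a single probe, since 4 had several probes of their accession, against 47 of the other 92.

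**Figure D5:**
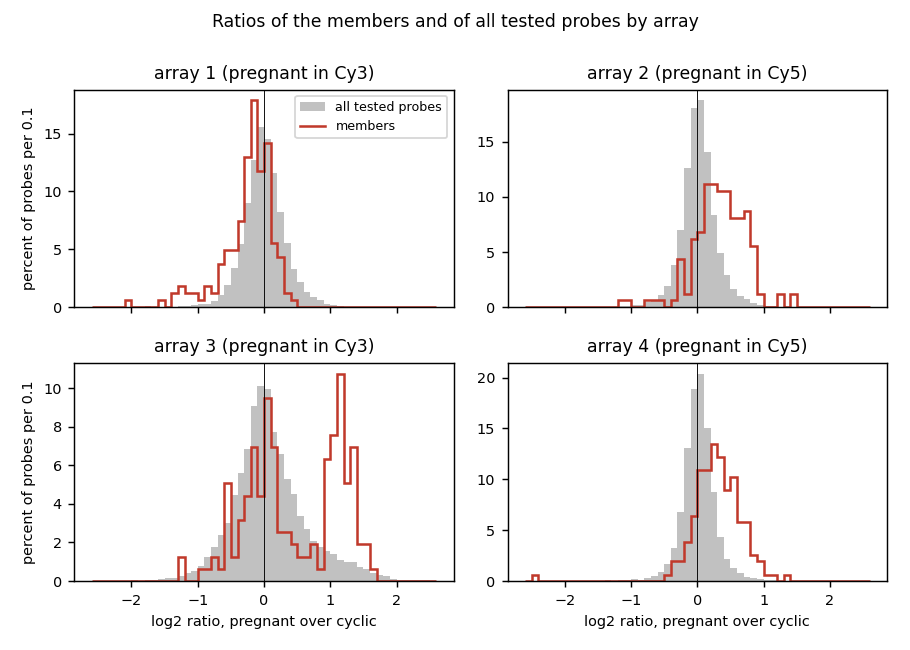
Distribution of the log2 ratio of pregnant over cyclic (horizontal axis) on each of the 4 arrays, as percent of probes per bin of 0.1 (vertical axis). Grey is all tested probes, the red line the members, and values beyond the axis, such as 1 member at -4.54 on array 3, are not drawn. The members lie mostly left of 0 on array 1, right of 0 on arrays 2 and 4, and form a second peak above 0.8 on array 3.

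The largest fitted ratios in either direction were found among members without a symbol. The transcript ENSSSCT00000019670 had levels of 16.03, 16.63, 17.05 and 16.71 in pregnant and of 17.91, 17.97, 17.33 and 19.36 in cyclic gilts. All cyclic gilts were above all pregnant gilts, and it was the only member with that order. Its ratio was -1.52 ± 0.93 (2.86-fold lower), with an adjusted p of 0.235 in limma. The next lowest fitted ratio, -0.90 ± 2.51, was that of a sequence cluster with -4.54 on array 3 and mixed signs on the others. ENSSSCT00000019676, of the same sign on every array, had levels of 16.81, 17.27, 17.25 and 18.13 in pregnant and of 18.01, 18.12, 17.89 and 18.51 in cyclic gilts. The cyclic gilt was the higher on each array, while the groups overlapped. Its ratio was -0.74 ± 0.50 (adjusted p = 0.235 in limma). In the other direction AK231609 had levels of 17.79, 17.64, 18.06 and 18.04 in pregnant and of 17.60, 17.05, 16.68 and 17.52 in cyclic gilts. The lowest pregnant gilt was just above the highest cyclic gilt. Its ratio was 0.66 ± 0.50 with an adjusted p of 0.245 in limma.

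With single arrays left out, members were called only without array 1. Without it 72 of 145 tested members passed the adjusted threshold, 69 higher and 3 lower in pregnant gilts, which is 49.7% against 15.5% of all probes. The calls then rest on 3 pairs. Array 3, alone in its dye orientation, weighed as much in the ratio as arrays 2 and 4 together. The dye term fitted array 3 exactly, so no scatter of array 3 entered the p-value of limma. Leaving out any other array likewise left 1 array alone in its orientation. Without arrays 2, 3 or 4 the count of called members was 0. At an unadjusted p under 0.05 there were then 2, 25 and 5 members (1.39%, 16.8% and 3.31%). The shares of all probes were 4.41%, 17.6% and 8.43%, so the members' shares were below them. CYP24A1, MUC13, MUT and CASP10 were among those called without array 1, with ratios of 1.01, 0.94, 0.90 and 0.75. Without array 3 the members' median ratio was 0.08 in place of 0.22, and 67.1% of their ratios were positive in place of 76.9%. The positive share also depended on the centring: with each array centred on its median in place of loess, 91.2% of the members' ratios were positive, with a median of 0.43, while that of all probes was 0.08. If pregnant RNA had carried Cy3 on every array, as the labelling protocol can be read, 33.8% would have been positive.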

How the data were processed

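Anterior pituitary RNA of 4 pregnant and 4 cyclic gilts, labelled as 825 ng of cRNA for each dye, went onto 4 arrays of Agilent design 026440 on 1 slide read in 1 scan, so no slide or scan batch could be tested. Per the file headers and the submitters' processing notes, Agilent Feature Extraction 10.7.3.1 read the median signal and background intensity of each spot and made the processed signals, which are background-subtracted and dye-normalised, and a log10 ratio of the dyes. The deposited value table holds log2 ratios: against log2 of Cy5 over Cy3 processed signals over 43603 probes its columns had slopes of -1, 1, -1 and 1, so it was turned by the dyes of the sample labels. Its medians of 0.07, -0.08, -0.18 and -0.17 show that no centring was done. The sources used here do not name the software behind it.

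Members were ranked on log2 processed signals of both channels, flagged spots included. For ratios, background was corrected by normexp (offset 50), each array was put through loess in which control spots had weight 0, feature outliers were dropped, and limma 3.58.1 in R 4.3.3 fitted group and dye for 21627 probes that were well above background on all 4 arrays in 1 group and unflagged on at least 3 arrays. P-values were two-sided and adjusted by Benjamini-Hochberg over all tested probes. Simulated data with known changes were used to check the fit. The area of lost signal on array 4 was drawn as tiles of 10 by 5 spots in which at least 25% of the bright spots were lost.

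Symbols came from RefSeq accessions that, versions removed, were found in the NCBI gene table of assembly Sscrofa11.1: 5578 probes of 2459 genes had 1 symbol. The files used here give no genome build and no probe sequences, so none is printed. The members and the 23 gene lists were chosen with earlier results of these data known. Every member with a symbol is named, and of members without one at most 2 in each direction by ID, chosen after the values were seen. Alternatives were processed signals, the value table, median centring, no dye term, no filter on dim probes, flagged spots kept, pregnant RNA in Cy3 throughout, spots of the dim area left out, a separate-channel fit, each array left out, and other rankings. The means of all probes of a gene and of an accession were added after seeing the data.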

Additional observations from a re-analysis of the deposited data

Results flagged for a closer look

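In sets of 4 values (82 sets of levels and ratios of named members), Dixon's test at the 95% level picked out 1 value in each of 2 sets. Chance would pick about 1 set in 20, or 4.1. GPX3 stood at 17.64 in the cyclic gilt of array 3, and at 16.91 to 16.94 in the other 3 cyclic gilts. The ratio of MUT was -0.41 on array 1 and 0.84 to 0.94 on arrays 2 to 4.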

How the results depend on the processing

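The limits are those of 4 pairs on 4 arrays, of probe brightness as a stand-in for amount, and of 139 members without a symbol. Signal over background did not limit any member. The median spread was 0.301 to 0.434 with an array left out. Of the 200 brightest accessions 185 to 197 remained with an array left out, 167 when probes of an accession were averaged, and 100 of 200 by construction when only 100 were taken. Called members numbered 8 in the separate-channel fit and 0 to 72 with an array left out, and 0 under the other 8 alternatives. Members at an unadjusted p under 0.05 were 20 (12.5%) in the report, against 18.1% of all probes. They numbered 11 with processed signals (6.88%) and also 11 with the deposited value table (6.51%), against 18.9% of all probes in both. They numbered 64 in the separate-channel fit (44.8% against 27.3%) and 2 to 88 with an array left out (1.39% to 60.7% against 4.41% to 32.3%). The cause was not tested.

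Of 338 ratios of the 25 tested named members under alternatives 41 turned their sign, and 5 newly passed the threshold: H3F3A in the separate-channel fit (0.30) and CASP10, MUC13, CYP24A1 and MUT without array 1. CASP10, CPE, GPX3 and NNAT kept their sign throughout. With pregnant RNA in Cy3 on every array, a reading that reverses 2 arrays by construction, the ratios were -0.26 for ATP5E, -0.078 for CLU, -0.87 for CYP24A1, -0.75 for FTH1, -0.18 for GNAS, -0.030 for H3F3A, -0.52 for ITGB3, -0.09 for MAGED1, -0.75 for MUC13, -0.30 for MUT, -0.20 for PTMA, -0.10 for SLC25A6, -0.49 for TPT1, -0.11 for UBB and -0.075 for UCHL1. With median centring they were 0.11 for EEF1A1, 0.13 for MT3, 0.050 for OAZ1, 0.16 for RACK1, 0.025 for SLC25A3 and 0.15 for TUBA1B. CLU was at -0.024 with no dye term and at -0.034 with processed signals. As the mean of all tested probes, FTH1 was at -0.0081, GNAS at -0.14, SLC25A6 at -0.15 and TPT1 at -0.10. With an array left out, ratios that turned ran from -0.0061 to 0.37 for FTH1, from -0.0087 to 0.17 for GNAS, from -0.15 to 0.65 for ITGB3, from -0.039 to 0.19 for MAGED1, from -0.16 to 0.018 for MT3, from -0.038 to 0.94 for MUC13, from -0.13 to 0.13 for SLC25A6, from -0.044 to 0.061 for TPT1 and from -0.20 to 0.094 for TUBA1B. The cause was not tested. The fit on ratios is itself paired by array, and the separate-channel fit kept the array as a block.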

Other observations

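Some functions of secretory cells had no member with a symbol; members without one were not assigned to any function. Of genes for entry into the endoplasmic reticulum and vesicle traffic 17 were on the array with a symbol, and the brightest, RPN2, a subunit of the enzyme that attaches sugars to new proteins, ranked 272. Of 16 tested 3 had a positive and 13 a negative ratio, with 1 higher and 4 lower at an unadjusted p under 0.05 in limma and none called. Over all tested probes 10.4% were higher and 7.62% lower at that p, and 10145 of 21627 had a negative ratio. Glycolysis had 7 measured genes, led by LDHB, a lactate dehydrogenase subunit, at rank 323. Antigen presentation had 14, led by B2M, the light chain of class I molecules, at rank 242. Their ratios were positive for 2 of 7 and for 8 of 14 tested genes, and none was called. GAPDH, ACTB and EEF2, which are often among the brightest genes of a tissue, had no probe with a symbol here, so the members describe what the named and unnamed probes measured and not the gland's whole output.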
